A study of Mus musculus with 6 samples.

Results

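The genes described here are 5 caspases, Casp1, Casp2, Casp6, Casp8 and Casp9, and 3 inhibitors of caspase activation or activity, Xiap, Birc2 and Cflar. They were taken by name: every probe set annotated to exactly 1 of these 8 symbols was included, which gave 11 of the 34760 probe sets on the array. Birc2 had 2 probe sets, Cflar had 3 and each of the other 6 genes had 1. Where a gene had several, the brightest over all arrays stood for it in the test across 19937 genes, and the others are given beside it.

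RNA came from C57BL/6J mouse cells labelled as granulocytes. The 6 arrays, of the Affymetrix type Mouse Gene 1.0 ST, were 3 labelled caffeine-plus and 3 caffeine-minus. By the labels' protocol, both cultures started with 4 hours in 15 mM caffeine, followed by 2 washes. They then spent 4 hours in 2 µg/ml actinomycin D, which blocks transcription, with caffeine present again in the caffeine-plus plate and absent from the other. The caffeine-minus arrays are nevertheless labelled as untreated with caffeine, so whether they had the first exposure rests on the protocol text alone. Caffeine was used to inhibit nonsense-mediated decay, and the series asks which transcripts accumulate when that decay is inhibited. Nothing in the labels says whether replicates were separate animals or cultures, so a p-value here reflects array-to-array spread that may be technical.

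Caspases are proteases that sit in cells as inactive precursors and cut their targets after aspartate residues. Initiator caspases are switched on when adaptor proteins bring their precursors together: Casp8 at death receptors, Casp9 on the Apaf1 apoptosome after mitochondria release cytochrome c, and Casp2 on the PIDDosome. Executioner caspases such as Casp6 are then activated by cleavage, while Casp1 belongs to the inflammasome and matures interleukin 1 beta. Inhibitor of apoptosis (IAP) proteins hold this system back. Xiap binds and blocks active caspases, Birc2 (cIAP1) is a ubiquitin ligase of the tumour necrosis factor (TNF) receptor complex, and Cflar (cFLIP) is a relative of Casp8 that controls its activation. Neutrophil granulocytes are short-lived cells in which these genes take part in the decision between survival and death. How mature the cells of these arrays were was not tested.

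Promoter sequences are shown for the inhibitor genes with the largest rise and the largest fall, Birc2 and Xiap, and for Casp8 and Cflar, which are neighbouring coding genes on mouse chromosome 1 and moved in opposite directions at their brightest probe sets. Of the start windows of Birc2 and Xiap, one with a match to the letters below was taken. Each is the 250 bases before an annotated transcription start, from RefSeq on build GRCm38.p6, with capitals marking the letters TGACG on either strand, the core of the cAMP response element. Caffeine is known to inhibit the phosphodiesterases that break down cAMP. Whether cAMP had any part in the differences reported here was not tested. By the protocol, the groups differed in caffeine during the actinomycin D step, in which transcription is blocked.
Birc2, chr9:7837058-7837307, minus strand: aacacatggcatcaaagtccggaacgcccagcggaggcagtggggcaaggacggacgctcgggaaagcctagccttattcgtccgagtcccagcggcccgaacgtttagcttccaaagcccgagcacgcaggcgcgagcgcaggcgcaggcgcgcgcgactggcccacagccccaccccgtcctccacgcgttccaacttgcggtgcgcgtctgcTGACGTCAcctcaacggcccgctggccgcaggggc
Xiap, chrX:42068148-42068397, plus strand: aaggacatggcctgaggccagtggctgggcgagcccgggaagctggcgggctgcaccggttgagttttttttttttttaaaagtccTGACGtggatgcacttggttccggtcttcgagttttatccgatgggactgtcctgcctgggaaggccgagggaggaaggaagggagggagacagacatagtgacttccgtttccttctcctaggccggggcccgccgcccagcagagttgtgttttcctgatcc
Casp8, chr1:58802252-58802501, plus strand: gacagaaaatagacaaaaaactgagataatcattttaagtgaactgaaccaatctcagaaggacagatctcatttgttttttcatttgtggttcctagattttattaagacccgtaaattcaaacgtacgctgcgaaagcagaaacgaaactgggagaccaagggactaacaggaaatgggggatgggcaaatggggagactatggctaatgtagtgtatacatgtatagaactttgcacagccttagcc
Cflar, chr1:58711241-58711490, plus strand: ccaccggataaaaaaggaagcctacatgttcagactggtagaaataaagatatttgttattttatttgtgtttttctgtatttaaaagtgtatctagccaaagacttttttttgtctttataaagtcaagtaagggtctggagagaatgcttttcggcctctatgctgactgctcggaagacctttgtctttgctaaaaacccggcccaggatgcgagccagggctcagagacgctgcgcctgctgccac
The Birc2 sequence holds the whole palindrome TGACGTCA, starting 35 bases before the transcription start. Among 32851 promoter sequences of this length, 1.55% hold that palindrome and 17.8% hold the core TGACG on at least 1 strand. RefSeq gives 2 start windows for Birc2 and 3 for Xiap, so that the 8 genes have 11 windows. The core was found in 3 of the 11, belonging to Birc2 and Xiap, which differed in opposite directions. The AP-1 site TGANTCA (6.75% of all promoters, both strands) and the NF-kappaB consensus (7.25%, both strands) matched in none of the 11 windows. The GC box GGGCGG (32.7% of all promoters) matched in 6 of the 11 windows. These belonged to 5 of the 8 genes, the exceptions being Casp1, Casp8 and Cflar. Such matches describe letters in these windows only.

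Across the array, arrays of 1 group correlated at Pearson r = 0.986 to 0.992 over probe sets, against 0.959 to 0.965 between groups. The defining genes of neutrophils were present: 17 of 18 measured markers, Elane, Ltf, Ly6g and S100a8 among them, lay above the median level of all genes, and 9 lay above the 90th percentile. Of those 18, 17 fell in the caffeine-plus arrays, none rose (limma with Benjamini-Hochberg adjustment, none at an unadjusted p under 0.05 either), and the median log2 difference was -0.59. For this and the counts that follow, the same test called 21.7% of all genes lower and 16.2% higher. Among genes above the median level, 33.0% were lower and 29.5% higher. Markers of monocytes and macrophages fell in 6 of 11 measured genes, with a mean log2 level of 6.82 to 6.84 in the caffeine-plus arrays and 7.35 to 7.51 in the caffeine-minus arrays. The 5 that did not pass included C1qa, C1qb and Mrc1. Of 6 measured B cell markers 1 fell, of 7 T and NK cell markers none passed in either direction by limma (none at an unadjusted p under 0.05 either), 5 of 10 markers of eosinophils, basophils and mast cells fell and 1 rose, and of 4 erythroid markers 1 rose and 1 fell. Markers of other cells were bright too. Of the 10 markers of eosinophils, basophils and mast cells, 8 lay above the median level of all genes. Prg2, Mcpt8, Cpa3 and Kit lay above the 90th percentile. Of the 11 monocyte and macrophage markers, 6 lay above the median and 2 above the 90th percentile. The part of any such cells in the results below was not tested. In such bulk RNA, fewer cells of a type and less RNA per cell cannot be told apart.

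Of the 8 genes, 3 rose in the caffeine-plus arrays (Birc2, Casp2 and Casp8), 3 fell (Xiap, Casp1 and Cflar), and Casp6 and Casp9 did not pass (limma adjusted p under 0.05, two-sided). A positive log2 difference means a higher level in the caffeine-plus arrays, and each is given ± standard error with n = 3 arrays per group. Rose and fell, here and throughout, mean higher and lower in the caffeine-plus than in the caffeine-minus arrays. Array medians were nearly equal, so each difference is relative to the other genes of an array. Whether a difference reflects RNA made or RNA lost was not tested. The limma test called 37.9% of all genes, 16.2% as higher and 21.7% as lower. All 8 genes lay above the median level of all genes, where 62.6% were called, 29.5% as higher and 33.0% as lower. The median difference of the 8 was 0.05, with a range from -0.85 to 0.49, beside a median of -0.04 over all genes. Values of the 2 groups did not overlap in 6 of the 8, against 45.9% of all genes. That share was not worked out for genes above the median level, so the 2 figures are not for genes of like level.

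**Figure D1:**
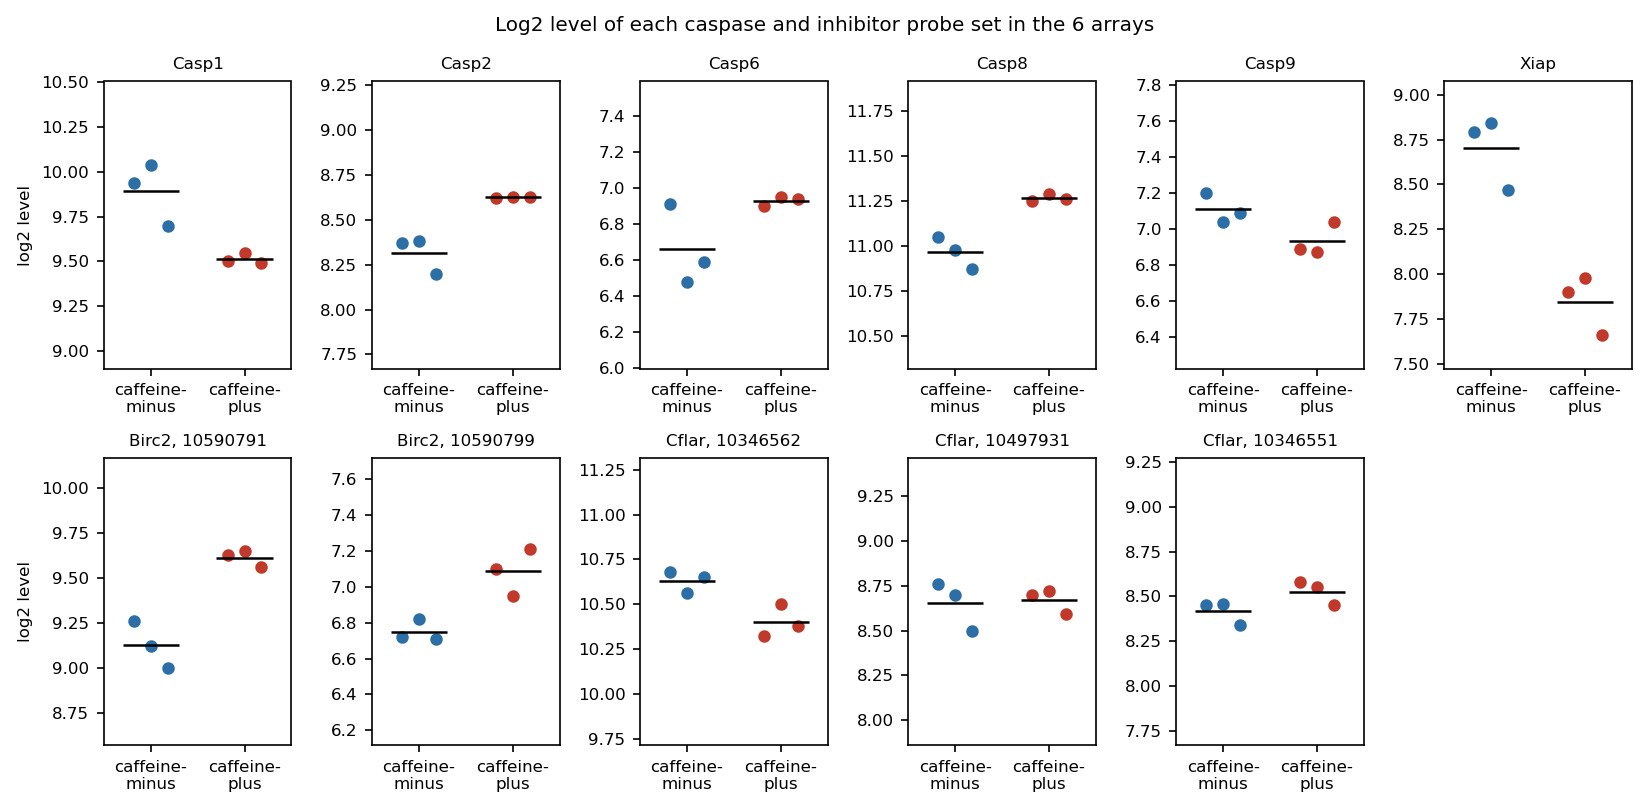
Log2 level (vertical axis) of the 11 probe sets in the caffeine-minus (blue) and caffeine-plus (red) arrays, 3 points per group, with black lines at the group means; every panel spans the same number of log2 units around its own mean. The 2 groups of Xiap, Birc2, Casp1, Casp2 and Casp8 stand apart, while the probe sets of Cflar differ from one another.

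Xiap, the IAP gene whose protein blocks caspases directly, showed the largest difference of the 8 genes. Its log2 level was 7.90, 7.98 and 7.66 in the caffeine-plus arrays and 8.79, 8.84 and 8.47 in the caffeine-minus arrays. Every caffeine-plus array was therefore below every caffeine-minus array, by more than the spread within either group. The fall was 1.8-fold (log2 difference -0.85 ± 0.11, limma adjusted p = 8.6e-06). A difference at least this large in either direction was seen in 8.86% of all genes. In both groups replicate 3 had the lowest value.

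Birc2, the ubiquitin ligase of the TNF receptor complex, moved the other way. The log2 level of its brighter probe set, 10590791, was 9.63, 9.65 and 9.56 in the caffeine-plus arrays and 9.26, 9.12 and 9.0 in the caffeine-minus arrays. No value of one group reached the other, and the caffeine-plus arrays were the tighter group. The rise was 1.4-fold (log2 difference 0.49 ± 0.08, limma adjusted p = 6.8e-05), a size reached in either direction by 21.8% of all genes. The second Birc2 probe set, 10590799, is annotated to 1 cDNA accession and no curated RefSeq transcript, and is dimmer. It read 7.10, 6.95 and 7.21 in the caffeine-plus arrays against 6.72, 6.82 and 6.71, again without overlap, and rose by 0.34 ± 0.10 (limma adjusted p = 0.034 in a fit of every probe set, which called 30.1% of them).

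Cflar, the regulator of Casp8, had 3 probe sets that did not give the same answer. The brightest, 10346562, read 10.32, 10.50 and 10.38 in the caffeine-plus arrays and 10.68, 10.56 and 10.65 in the caffeine-minus arrays. These groups did not overlap, although caffeine-plus array 2 and caffeine-minus array 2 lay close together. The fall was 1.17-fold (log2 difference -0.23 ± 0.06, limma adjusted p = 0.0067). Probe set 10346551 read 8.58, 8.55 and 8.45 against 8.45, 8.46 and 8.34, and differed by 0.11 ± 0.07 (limma adjusted p = 0.35, fit of every probe set). Probe set 10497931 read 8.70, 8.72 and 8.59 against 8.76, 8.70 and 8.50, and differed by 0.02 ± 0.09 (limma adjusted p = 0.91). Their 95% intervals ran from -0.06 to 0.28 and from -0.18 to 0.23, and neither group pair was separate. The annotation ties the brightest probe set to 4 RefSeq transcripts of Cflar and the other 2 to 4 and 5, together with cDNA accessions, and does not say which exons each covers. Whether each lies at the Cflar gene was not checked. The call of Cflar was lost when its 3 probe sets were averaged (log2 difference -0.03 ± 0.07, adjusted p = 0.78), when arrays were centred on their medians (0.064), without the intensity trend (0.054) and without caffeine-plus array 1 (0.055). Over 16 alternatives its limma adjusted p ran from 0.0017 to 0.78.

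**Figure D2:**
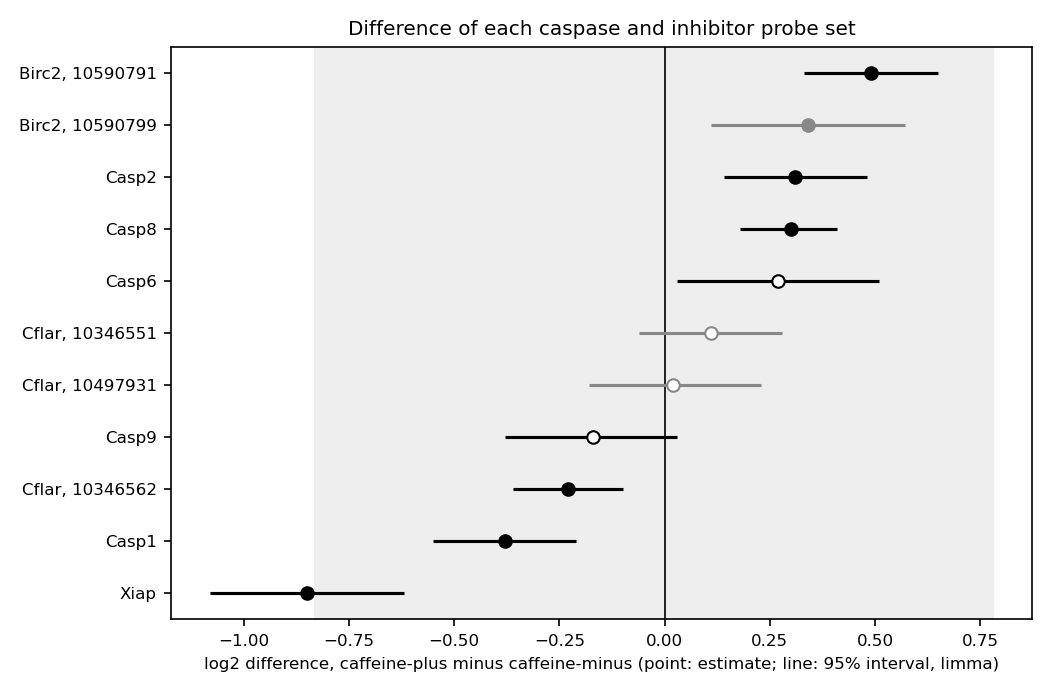
Log2 difference (horizontal axis, caffeine-plus minus caffeine-minus) of each probe set with its 95% interval from limma. Black marks the probe set that stands for a gene, from the fit of all genes. Grey marks the other probe sets, from the fit of every probe set. Filled points passed the adjusted p of 0.05 in their own fit. The shaded band spans the 5th to 95th percentile of all genes (-0.83 to 0.78), and Xiap at -0.85 is the only point beyond it.

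Among the initiator caspases, Casp8 and Casp2 rose and Casp9 did not pass. The level of Casp8 on the log2 scale was 11.25, 11.29 and 11.26 in the caffeine-plus arrays, all above the 11.05, 10.98 and 10.87 of the caffeine-minus arrays. Its rise was 1.23-fold (log2 difference 0.30 ± 0.05, limma adjusted p = 0.00034). Casp2, the PIDDosome caspase, read 8.62, 8.63 and 8.63 in the caffeine-plus arrays and 8.37, 8.38 and 8.20 in the caffeine-minus arrays. The 3 caffeine-plus values were almost the same, and the rise was 1.24-fold (log2 difference 0.31 ± 0.08, limma adjusted p = 0.0046). Casp9, the apoptosome caspase, read 6.89, 6.87 and 7.04 against 7.20, 7.04 and 7.09, with array values that overlapped. Its difference of -0.17 ± 0.10 did not pass (limma adjusted p = 0.19, 95% interval -0.38 to 0.03). The span of Casp9 overlaps that of Cela2a in the reference annotation, so signal there is uncertain in its gene.

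Casp6, an executioner caspase that cuts nuclear lamins, read 6.90, 6.95 and 6.94 in the caffeine-plus arrays and 6.91, 6.48 and 6.59 in the caffeine-minus arrays. Caffeine-minus array 1 lay within the caffeine-plus values and the other two lay below them. The difference of 0.27 ± 0.11 did not pass (limma adjusted p = 0.072, 95% interval 0.03 to 0.51). It passed without caffeine-minus array 1 (0.39 ± 0.10, adjusted p = 0.0077), with the replicate number as a block (0.045), after quantile normalization (0.015), with arrays centred on their medians (0.021) and among genes above the median level (0.042). Its adjusted p ran from 0.0077 to 0.27 over 16 alternatives. The span of Casp6 overlaps those of Gm46825 and Gm40150 in the reference annotation.

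Casp1, the inflammasome caspase, was the 1 caspase of the 5 that fell. It read 9.50, 9.55 and 9.49 in the caffeine-plus arrays and 9.94, 10.04 and 9.70 in the caffeine-minus arrays, with no overlap. The fall was 1.3-fold (log2 difference -0.38 ± 0.08, limma adjusted p = 0.0011). Casp1 lies next to Casp4 and Casp12 in the reference annotation. Casp4, the caspase that senses cytosolic lipopolysaccharide, read 10.05, 10.04 and 10.10 against 10.33, 10.25 and 10.21 (log2 difference -0.20 ± 0.06, limma adjusted p = 0.013). That call was lost with arrays centred on their medians (adjusted p = 0.11), without the intensity trend (0.073) and on leaving out caffeine-plus array 1 (0.055) or 2 (0.066); the range over 16 alternatives was 0.0004 to 0.11. Casp12 was dim, at 4.30, 4.42 and 4.21 against 5.07, 4.91 and 5.04, with a log2 difference of -0.70 ± 0.11 (limma adjusted p = 6.8e-05). Both filters on dim genes removed it, and the call held under the 14 alternatives that tested it. Casp14, a caspase of the skin, differed by -0.07 ± 0.13 (adjusted p = 0.74). None of these 3 other caspases rose by limma, and none was higher at an unadjusted p under 0.05.

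Pairs of genes whose products meet were compared within each array, which shows unequal change only. Casp8 minus Cflar was 0.93, 0.79 and 0.88 log2 units in the caffeine-plus arrays and 0.37, 0.43 and 0.22 in the caffeine-minus arrays. All caffeine-plus values were higher, by 0.53 on average (exact permutation test, two-sided, p = 0.10, the smallest that 3 against 3 arrays allow). With the other Cflar probe sets the change was smaller, 0.19 for 10346551 and 0.28 for 10497931, and the groups were again separate. Averaging the Cflar probe sets gave 0.33. Casp9 minus Xiap was -1.02, -1.11 and -0.62 against -1.59, -1.81 and -1.38, a mean change of 0.68 (exact permutation p = 0.10). Casp8 minus Casp9, the initiators of the death receptor and mitochondrial routes, changed by 0.47 (exact permutation p = 0.10). Adjusted over the 3 pairs, each p stayed at 0.10, so none could pass at this number of arrays.

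**Figure D3:**
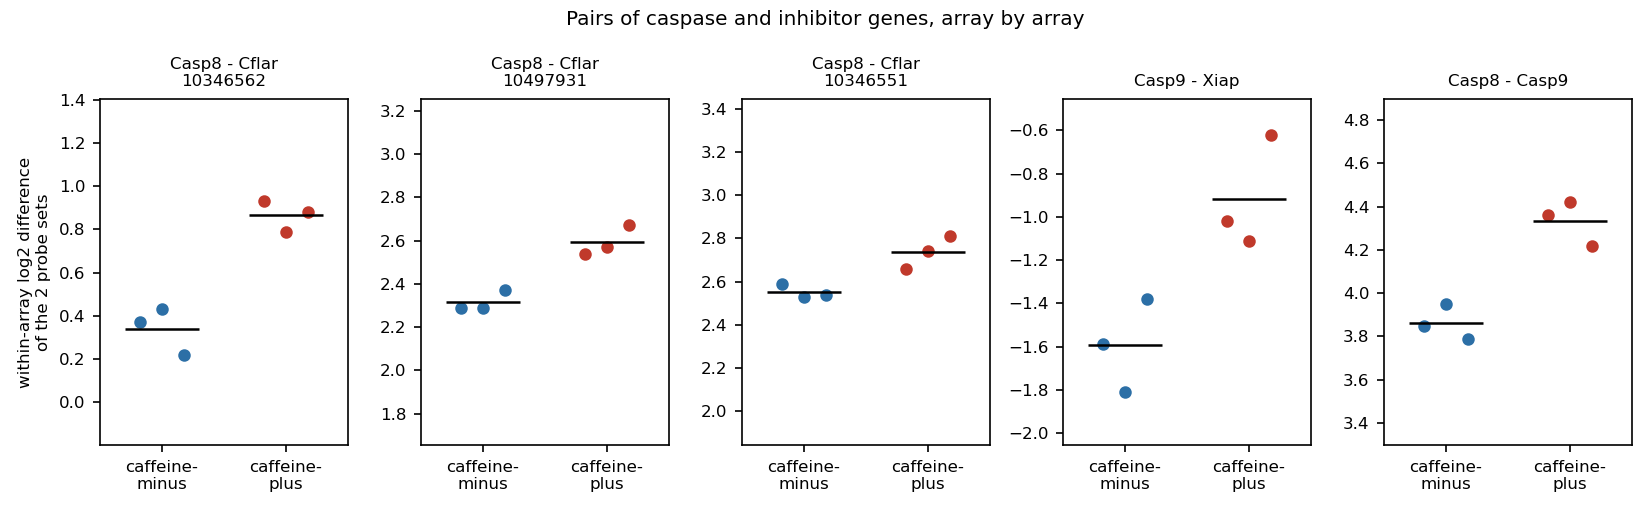
Within-array log2 difference of the named probe sets (vertical axis) in the caffeine-minus (blue) and caffeine-plus (red) arrays, with lines at the group means and the same span in each panel. Casp8 is higher relative to Cflar in every caffeine-plus array, whichever of the 3 Cflar probe sets is taken, and Casp9 is higher relative to Xiap.

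The partners of these genes were followed in 8 lists of 67 genes, of which 62 were measured. Of those, 16 rose and 20 fell, a share of 58.1% beside the 37.9% of all genes. Most of the listed genes were bright, and among the 48 above the median level of all genes 15 rose and 16 fell, a share of 64.6% beside the 62.6% of all genes at that level. The share of calls among the bright listed genes was therefore near the background. The median difference of the 62 was -0.09.

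Among the other IAP genes 2 of 7 rose and 4 fell. Birc6, a giant IAP and ubiquitin-conjugating enzyme, read 10.12, 10.12 and 10.14 in the caffeine-plus arrays against 9.40, 9.32 and 9.10, a rise of 1.81-fold (log2 difference 0.85 ± 0.08, limma adjusted p = 1.6e-07). Birc3 (cIAP2), the close relative that neighbours Birc2 in the genome, went against it. It read 8.62, 8.53 and 8.53 against 9.07, 8.81 and 8.78 and fell by 1.25-fold (log2 difference -0.33 ± 0.09, limma adjusted p = 0.0057). Birc5 (survivin), a protein of dividing cells, fell by 1.37-fold. The Naip genes encode sensors of bacterial proteins and form a family of close copies, so their separate signals are uncertain: Naip5 fell by 1.33-fold and Naip6 by 1.23-fold, while Naip2 rose by 1.3-fold. The call of Naip6 (adjusted p = 0.018) was lost under 5 of 16 alternatives, among them leaving out caffeine-plus array 3 (0.094) or caffeine-minus array 1 (0.051) or 2 (0.052). Birc7 did not pass (0.13 ± 0.11).

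Proteins released from mitochondria that bind and neutralise IAPs, and other IAP antagonists, had 3 of 4 genes lower and none higher (limma, none at an unadjusted p under 0.05 either). Htra2, a mitochondrial protease, read 8.09, 7.83 and 8.02 in the caffeine-plus arrays and 9.45, 9.29 and 9.34 in the caffeine-minus arrays. The groups were more than 1 log2 unit apart, a fall of 2.6-fold (log2 difference -1.38 ± 0.08, limma adjusted p = 3.4e-09). Its span overlaps those of Loxl3 and Aup1 in the reference annotation. Diablo (Smac) fell by 1.46-fold and Septin4 by 1.28-fold. Septin4 did not pass when caffeine-plus array 1 (adjusted p = 0.085) or caffeine-minus array 2 (0.075) was left out. Xaf1, whose product binds Xiap, differed by 0.24 ± 0.11 and did not pass (adjusted p = 0.13), except after quantile normalization (0.045).

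Of 12 genes of activation platforms and adaptors 2 rose and 4 fell. Nlrp3, the sensor of an inflammasome that activates Casp1, read 8.01, 8.11 and 7.95 against 6.77, 7.02 and 6.99. All 3 caffeine-plus arrays were far above the others, a rise of 2.14-fold (log2 difference 1.10 ± 0.10, limma adjusted p = 1.4e-07), while Casp1 itself fell. Mefv (pyrin) fell by 1.64-fold and Nlrc4 by 1.33-fold, and Pycard, the adaptor that joins such sensors to Casp1, differed by -0.01 ± 0.08. For the apoptosome, Apaf1 rose by 1.32-fold and the brightest probe set of Cycs (cytochrome c) fell by 1.44-fold. A second Cycs probe set fell by 1.54-fold and the dimmest differed by 0.05 ± 0.11. Whether each of these probe sets lies at the Cycs gene was not checked. Fadd, the adaptor that recruits Casp8 to death receptors, fell by 1.6-fold (log2 difference -0.68 ± 0.10, limma adjusted p = 4.8e-05).

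**Figure D4:**
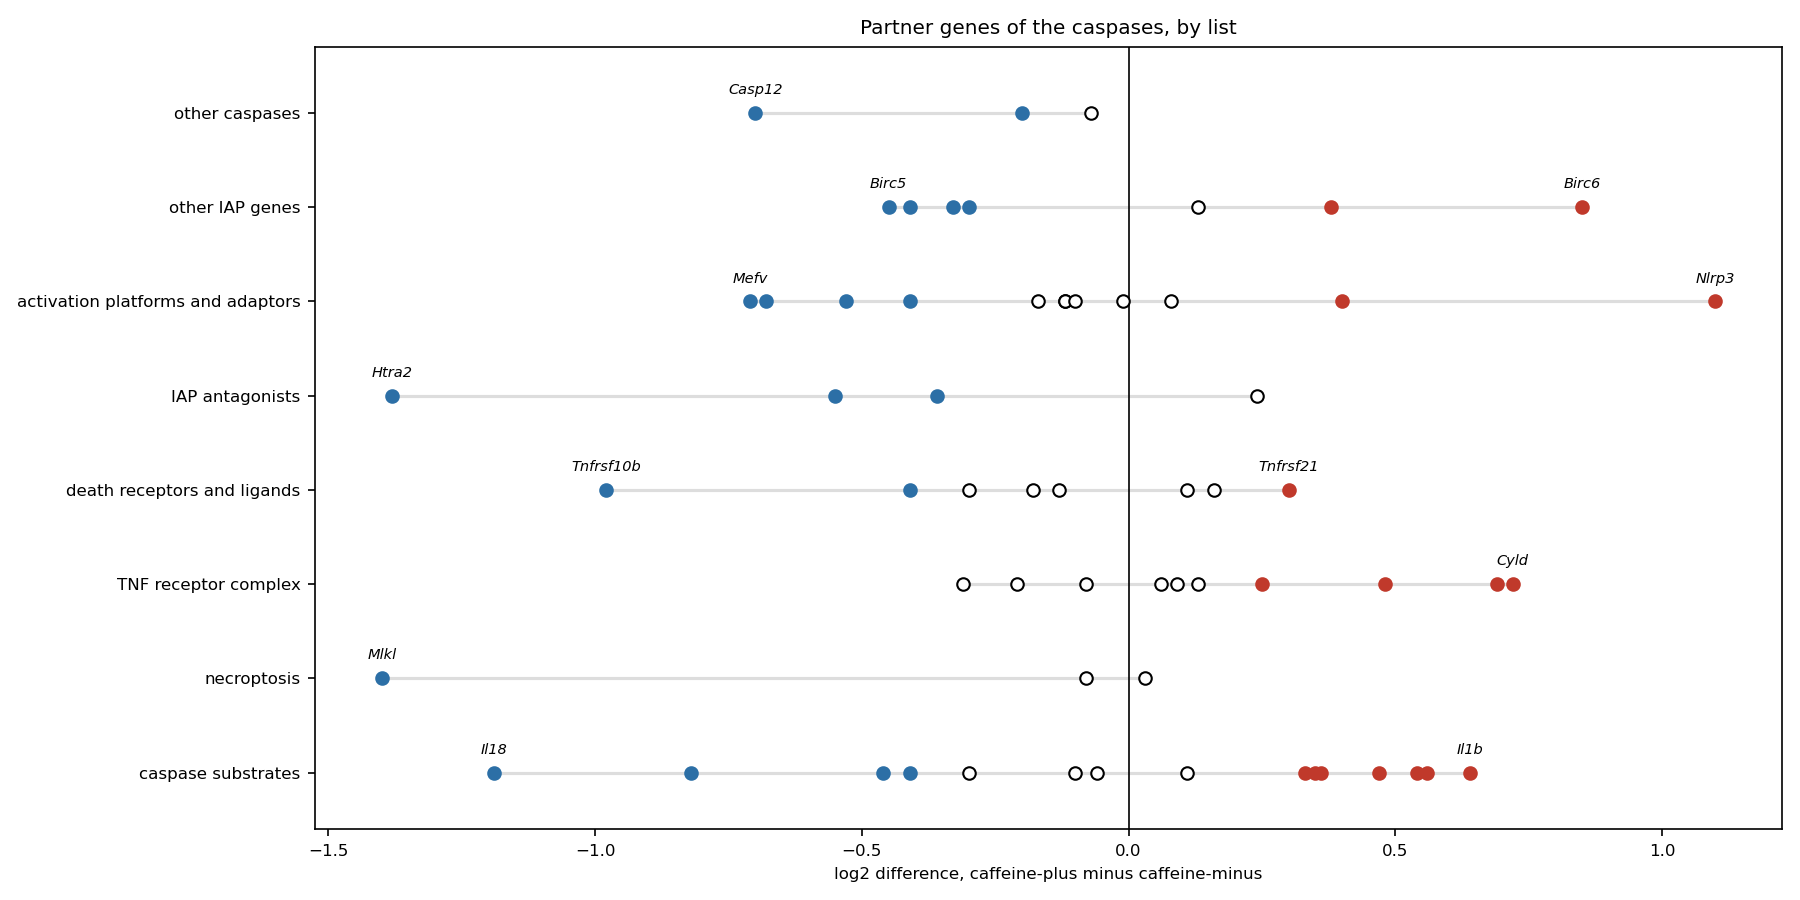
Log2 difference (horizontal axis) of each measured gene in 8 lists of caspase partners, with red for genes that rose, blue for genes that fell and open circles for genes that did not pass. The lists spread to both sides of 0; Htra2, Mlkl and Il18 lie at the low end and Nlrp3 at the high end.

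At the cell surface, 1 of 8 death receptor and ligand genes rose and 2 fell. Tnfrsf10b, the TRAIL receptor, read 6.12, 6.42 and 6.20 against 7.16, 7.42 and 7.12 and fell by 1.98-fold (log2 difference -0.98 ± 0.11, limma adjusted p = 2.8e-06). Tnf fell by 1.33-fold and Tnfrsf21 rose by 1.23-fold. Fas, the best known partner of Casp8 and Fadd, differed by -0.30 ± 0.13 and did not pass (adjusted p = 0.077), except with the replicate block (0.020) or without caffeine-minus array 2 (0.012). Downstream, in the TNF receptor complex where Birc2 acts, 4 of 10 measured genes rose. None fell by limma, although 2 were lower at an unadjusted p under 0.05, Tradd (-0.31 ± 0.12) and Rbck1 (-0.21 ± 0.08), and at least 1 gene was lower under 9 of the 16 alternatives. The deubiquitinases Cyld and Tnfaip3 (A20), which restrain this complex, rose by 1.65-fold and 1.62-fold. Tab2, an adaptor that binds ubiquitin chains, rose by 1.39-fold and Sharpin by 1.19-fold. The Sharpin call (adjusted p = 0.015) was lost after quantile normalization (0.15) and without caffeine-plus array 2 (0.11) or caffeine-minus array 2 (0.075).

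Necroptosis is the form of death that follows when Casp8 is blocked. Mlkl, its pore-forming effector, read 8.32, 8.39 and 8.35 in the caffeine-plus arrays and 9.81, 9.72 and 9.72 in the caffeine-minus arrays. The difference was many times the spread within groups, a fall of 2.63-fold (log2 difference -1.40 ± 0.07, limma adjusted p = 4.4e-10). Its kinase Ripk3 differed by 0.03 ± 0.08 and the sensor gene Zbp1 by -0.08 ± 0.11, and neither passed. None of the 3 rose by limma, with none higher at an unadjusted p under 0.05.

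Among 15 genes of caspase substrates 7 rose and 4 fell. The substrates of Casp1 divided: Il1b, an inflammatory cytokine gene, read 7.59, 7.49 and 7.47 against 6.96, 6.94 and 6.74 and rose by 1.56-fold (log2 difference 0.64 ± 0.10, limma adjusted p = 4.5e-05). Il18, a related cytokine gene, read 5.44, 5.25 and 5.36 against 6.56, 6.74 and 6.32 and fell by 2.29-fold (log2 difference -1.19 ± 0.12, limma adjusted p = 6.5e-07). Gsdmd, whose cut product forms the pores of pyroptosis, fell by 1.38-fold. The span of Il1b overlaps that of its antisense gene Il1bos and the span of Il18 those of Bco2 and Tex12. Bid, which carries the signal of Casp8 to mitochondria, fell by 1.77-fold. The apoptotic nuclease gene Dffb rose by 1.46-fold and the gene of its inhibitor, Dffa, fell by 1.33-fold. Il18 and Dffb lay below the median level of all genes and were removed by the filter there. Their calls held under the 15 alternatives that tested them. Rock1, a kinase behind membrane blebbing, rose by 1.47-fold and Acin1 by 1.38-fold. The lamin genes Lmnb1 and Lmna, with 1.26-fold and 1.28-fold rises, encode substrates of Casp6, and Lmna did not pass when caffeine-plus array 2 was left out (adjusted p = 0.055).

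The genes whose 6 values lay closest to those of Birc2, after centring each gene on its own mean, were Vps26a, Homer1 and Cdca8, at Euclidean distances of 0.0408, 0.0432 and 0.0508 log2 units. Those closest to Xiap were Zfp971, Palb2 and Rad51c, at 0.109, 0.122 and 0.137. The 3 genes near Birc2 differed by 0.47 to 0.49 and the 3 near Xiap by -0.94 to -0.83. Such likeness over 6 arrays rests mostly on the difference between the groups.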

How the data were processed

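The authors deposited 1 value per probe set and array. The values were taken as log2, since they run from 1.90 to 13.98 and no deposited header states the unit. Per the labels' protocols, biotinylated cDNA was made from 300 ng of Trizol-extracted total RNA. The sources used here do not give the summarization or the normalization. Array medians lay between 6.49 and 6.60. The number of arrays limits the precision, and a dim probe set shows less than the true change.

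Of 34760 probe sets, 21640 carry 1 gene symbol in the platform annotation, 1321 carry several and 11799 are not listed there. Symbols were updated through the reference gene table (GRCm38.p6) for 21553, and the brightest probe set stood for each of 19937 genes. No filter on dim genes was used. The fit used limma 3.58.1 (R 4.3.3) with lmFit and eBayes with an intensity trend over all genes. Tests were two-sided, and an adjusted p (Benjamini-Hochberg) under 0.05 was called. The test was tried on simulated data in which 200 of 19937 genes were changed. It recovered 6% of changes of 0.3 log2 units, 50% of 0.5, 98% of 1 and 100% of 2. Of its calls there, 4.51% were false. Small changes were thus mostly missed in the simulation. Far more genes were called in the real data, so recovery there may differ. Permutation tests were run in Python 3.11.15. No 2 arrays held identical values and the labels give no batch.

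The members, the lists and the tests were chosen with earlier results of these data known. Named genes were all 8 members, the up to 4 genes of each list with the smallest p, genes that a count of 5 or fewer singled out, and the 3 genes nearest in profile to the member with the largest rise and the member with the largest fall, without small RNAs, clone names and olfactory or vomeronasal receptors. Pycard, Birc3, Birc7, Naip6, Apaf1, Nlrc4, Gsdmd, Dffa, Dffb, Lmna, Lmnb1 and Acin1 were chosen after their values were seen. Alternatives were the replicate block, quantile normalization, median centring, 2 filters on dim genes, averaged probe sets, every probe set tested, 2 variance models, array weights and each array left out in turn. The filter at the median level removed Il18, Dffb, Fas, Nlrc4, Septin4 and Zbp1, so 15 alternatives tested each of these.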

Additional observations from a re-analysis of the deposited data

How the results depend on the processing

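Xiap, Birc2, Casp1, Casp2 and Casp8 kept their direction and their call under all 16 alternatives run, with limma adjusted p of at most 0.0017, 0.0026, 0.016, 0.021 and 0.014. Casp9 did not pass under any of the 16. Casp6 gained its call under 5 of them and Cflar lost it under 4, as given above. Averaging brought in the 2 Cflar probe sets that did not fall; otherwise the cause was not tested. Between 3 and 4 of the 8 genes were higher and between 2 and 3 lower, whichever setting was used. The count of all genes called higher ran from 2880 to 3674 and that of genes called lower from 3496 to 4660. Casp14 and Ripk3, neither of which passed, changed sign. Casp14 differed by 0.00 without caffeine-plus array 2 and by 0.03 without caffeine-minus array 3, and Ripk3 by 0.00 after quantile normalization and by -0.01 without caffeine-plus array 2. With each array left out in turn, Casp14 ran from -0.20 to 0.03 and Ripk3 from -0.01 to 0.07. The replicate numbers were not taken to pair the arrays, since the labels do not say that a number marks a shared animal, culture or day. Deviations of same-numbered arrays correlated at -0.028, 0.19 and 0.293. Those of differently numbered arrays correlated at -0.277 to 0.125. So few correlations cannot settle whether the arrays were paired. With the replicate block 3388 genes were higher and 4660 lower, and of the 8 genes 4 were higher and 3 lower, Casp6 being the one gained. The median difference of all genes was -0.037 as deposited, -0.0181 after quantile normalization and 0.022 after centring.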
